A study of Mus musculus with 15 samples.

Results

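The 34 genes described here mark endothelial cells, the lining of blood vessels, and were taken as a named set: Cdh5, Pecam1, Kdr, Flt1, Tek, Tie1, Emcn, Egfl7, Cldn5, Esam, Robo4, Eng, Erg, Fli1, Sox7, Sox17, Sox18, Cav1, Ly6c1, Ly6a, Aplnr, Mmrn2, Ptprb, S1pr1, Rasip1, Ushbp1, Clec14a, Cd93, Rgcc, Tcf15, Meox2, Nrp1, Ecscr and Plvap. All 34 were found by symbol among 55487 genes counted, and all 34 passed the filter on low counts that left 20718 genes for testing. RNA was sequenced from the left ventricle of 7 mice with kidney disease and of 8 wild-type mice. The kidney disease mice carried a Col4a5 mutation, which the sample labels call a knockdown and the study's design text a collagen IV knockout. Col4a5 encodes a type IV collagen chain needed by the filtration barrier of the kidney, and mice without it develop progressive kidney failure. Both groups were male, were 225 days old, ate normal chow and shared housing as littermates. The labels describe the mutants as having reached advanced chronic kidney disease, and give no strain. They name isoflurane in one place and ketamine with xylazine in another as the anaesthetic. The design text calls the animals of each group biological replicates.

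Endothelial cells keep a shared identity through ETS family transcription factors such as Erg and Fli1 and through the SoxF factors Sox7, Sox17 and Sox18. They carry receptors for vascular endothelial growth factor (VEGF), angiopoietins, sphingosine 1-phosphate and apelin, and seal the vessel wall with VE-cadherin, claudin and immunoglobulin-like adhesion molecules. In the heart most of them form the dense capillary bed that supplies oxygen and fatty acids to cardiomyocytes. The comparison asked whether transcripts of this identity programme differed between the ventricles of kidney disease and wild-type mice. The tissue was not sorted. No value below can tell apart the number of endothelial cells, their RNA per cell and transcripts of other cells.

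Libraries held between 48748379 and 65519279 counts. The check of the labels held in every animal: Col4a5 had 522 to 1111 counts in kidney disease libraries and 2442 to 3620 in wild-type libraries, a log2 change of -2.08 (SE 0.11, edgeR adjusted p = 3e-09). Its neighbour Col4a6 had 5 to 30 counts in kidney disease libraries and 106 to 355 in wild-type libraries. Over all genes, 266 differed at an edgeR quasi-likelihood adjusted p below 0.05, which is 1.28% of those tested. Of these, 168 were higher in kidney disease (0.811%) and 98 were lower (0.473%). The libraries also split by their most abundant transcript, Ttn in 3 kidney disease and 2 wild-type libraries and mt-Co1 in the other 4 and 6.

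Promoter windows of 300 bases (250 before the annotated start and 50 after it, RefSeq, GRCm38.p6) were held for 18 of the 34 genes, in 24 windows. The windows of 3 genes are shown, Clec14a because it was the single gene of the set past the test, Robo4 because it had the lowest log2 change, and Eng because it had the highest level per kilobase and matches to both motifs searched. Capitals mark the letters CGGAAG or AGGAAG, of a kind bound by ETS factors, and AACAAT or ACAAAG, of a kind bound by SOX factors. Both strands were searched, and other sequences that these factors bind were not. The windows lie at chr12:58269209-58269508 on the minus strand (Clec14a), chr2:32646345-32646644 on the plus strand (Eng) and chr9:37401722-37402021 on the plus strand (Robo4).
Clec14a: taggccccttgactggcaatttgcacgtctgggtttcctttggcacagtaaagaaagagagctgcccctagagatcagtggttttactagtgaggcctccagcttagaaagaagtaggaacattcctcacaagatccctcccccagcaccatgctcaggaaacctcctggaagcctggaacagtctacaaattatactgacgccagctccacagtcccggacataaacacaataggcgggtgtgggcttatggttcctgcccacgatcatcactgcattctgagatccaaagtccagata
Eng: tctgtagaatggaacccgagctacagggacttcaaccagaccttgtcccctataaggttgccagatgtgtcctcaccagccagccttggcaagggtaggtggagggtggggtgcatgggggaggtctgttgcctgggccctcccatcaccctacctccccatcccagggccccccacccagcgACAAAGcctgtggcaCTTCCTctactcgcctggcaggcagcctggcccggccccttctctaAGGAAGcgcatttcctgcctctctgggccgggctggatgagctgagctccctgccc
Robo4: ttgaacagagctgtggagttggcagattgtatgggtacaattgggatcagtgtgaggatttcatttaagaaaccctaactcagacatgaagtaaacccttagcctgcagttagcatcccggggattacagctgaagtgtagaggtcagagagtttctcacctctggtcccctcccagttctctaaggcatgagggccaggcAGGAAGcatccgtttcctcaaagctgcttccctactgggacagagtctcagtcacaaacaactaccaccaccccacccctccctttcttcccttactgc
The Clec14a window held none of the letters searched. The Robo4 window held 1 ETS match, and the Eng window held 2 ETS matches and 1 SOX match. ETS letters stood in 14 of the 24 windows of the set (58.3%), against 46.5% of all 32817 windows. SOX letters stood in 7 of them (29.2%), against 27.0% of all windows. A match is a description of these letters and not evidence of binding.

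The endothelial programme as a whole was close to equal between the groups, with a small lean toward kidney disease. One gene, Clec14a, was higher in kidney disease hearts, and 0 were lower. By comparison 0.811% of all genes tested were higher and 0.473% were lower, so 1 gene in a set of this size is no basis for a statement about the set. Unadjusted p was below 0.05 for 11 of the 34 genes (32.4%), against 12.4% of all genes. Other tools called 4 genes of the set higher (DESeq2: Clec14a, Ly6a, Sox18 and Ecscr) or 1 (limma-voom), and 0 lower. Of all genes tested, DESeq2 called 2.21% higher and 1.53% lower, and limma-voom 0.763% and 0.454%. Values of 31 genes of the set lay above 0 on the log2 scale and of 3 (Robo4, Aplnr and Cd93) below, and Cdh5 moved below 0 under RLE and upper-quartile scaling. Over the 34 genes the median log2 change was 0.10 (range -0.08 to 0.45), whereas over all genes tested it was 0.00 and 51.2% lay above 0. In 26 genes the whole 95% interval lay within 0.5 of 0 on the log2 scale, and in 11 within 0.25. For none of the 34 were the kidney disease and wild-type ranges separate, a pattern that 0.386% of all genes tested showed with kidney disease higher and 0.179% with it lower.

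**Figure D1:**
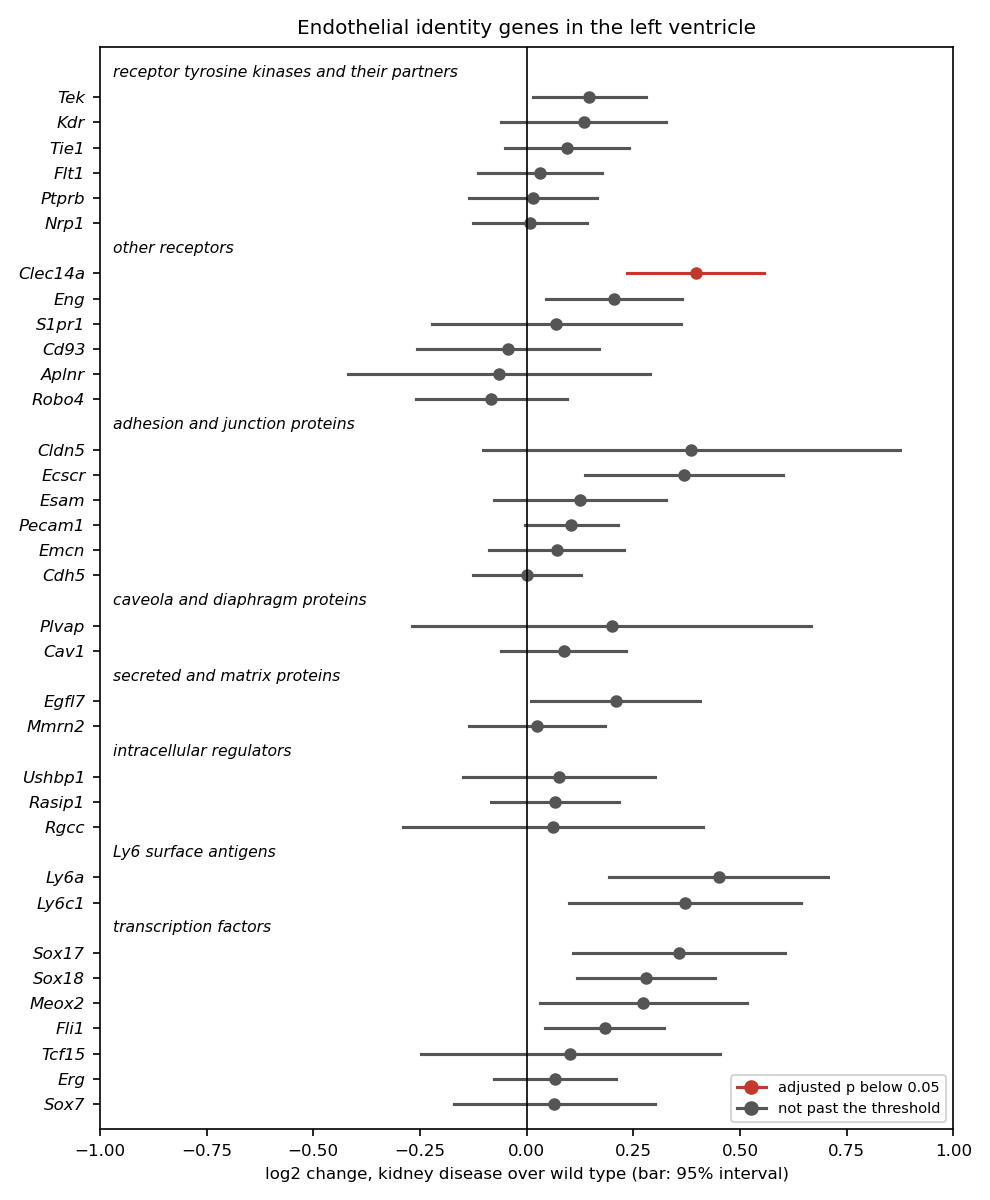
Log2 change of each of the 34 endothelial genes, kidney disease over wild type (x axis, edgeR), with its 95% interval as a line, grouped by the role of the protein (y axis). Clec14a at 0.40 is the gene past the threshold. Most intervals cross 0, and the widest belong to Cldn5 and Plvap.

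The lean differed between subsets of the libraries, a difference that was not tested. The libraries led by Ttn came from only 3 kidney disease and 2 wild-type animals. Among the 5 libraries led by Ttn, 16 genes lay above 0 and 18 below, with a median of -0.02. Among the 10 libraries led by mt-Co1, 31 lay above 0 and 3 below, with a median of 0.16. With the leading transcript as a covariate over all 15 libraries the counts were 29 and 5 and the median 0.10. Leaving out one library at a time gave between 26 and 32 genes above 0.

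Clec14a, a C-type lectin receptor of the endothelial surface, lies at chr12:58264720-58269290 on the minus strand. It had a TMM-scaled CPM (its count relative to the size of the library) of 23.5 to 32.2 in kidney disease hearts (median 26.7) and of 16.8 to 23.9 in wild-type hearts (median 20.4). In all, 6 of 7 kidney disease animals lay above every wild-type animal, and the groups overlapped through kidney disease animal 5 at 23.5 CPM and wild-type animal 1 at 23.9 CPM. The means were 27.0 ± 2.83 CPM in kidney disease (SD, n = 7) and 20.5 ± 2.31 CPM in wild type (SD, n = 8), a 1.32-fold difference. Its log2 change was 0.40 (SE 0.08, 95% interval 0.24 to 0.56, edgeR adjusted p = 0.0162). Between 927 and 1816 reads per library stood behind these values, none of its 50-base stretches was shared with another gene's transcripts, and no annotated exon of another gene overlapped it. The change stayed past the threshold in 24 of 26 alternatives, including all 15 that left out a library (adjusted p 0.0154 to 0.0388). It was similar in size but missed the threshold within the libraries led by Ttn (0.41, adjusted p = 0.327) and within those led by mt-Co1 (0.43, adjusted p = 0.0687), where fewer animals enter.

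**Figure D2:**
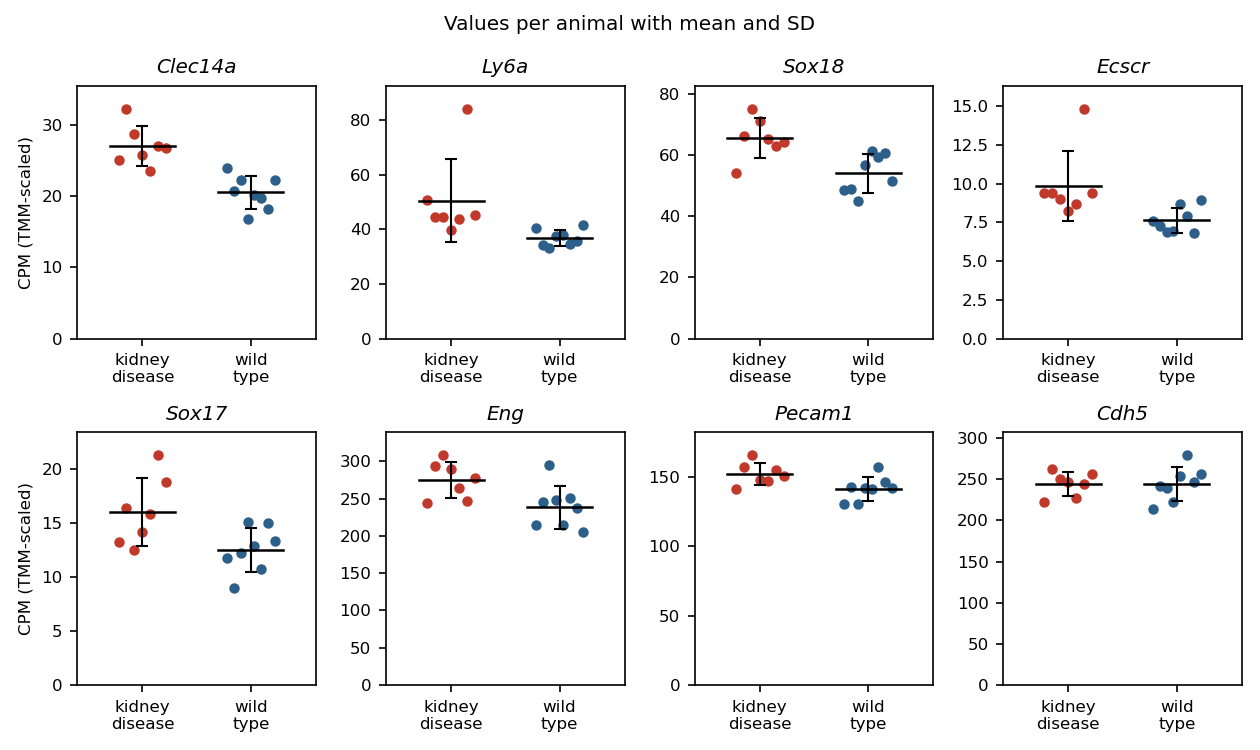
TMM-scaled CPM of 8 endothelial genes in each animal (points), with kidney disease left of wild type and horizontal lines for the group mean and SD. Clec14a and Sox18 show kidney disease animals mostly above wild type, Cdh5 shows full overlap, and 1 kidney disease animal stands far above the rest for Ly6a (84.0 CPM) and Ecscr (14.8 CPM).

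A related receptor and its matrix ligand gave no call. Cd93, a receptor of the same lectin family, had 109 to 142 CPM in kidney disease (median 135) and 96.4 to 166 CPM in wild type (median 136). Its log2 change was -0.04 (95% interval -0.26 to 0.17, adjusted p = 0.921). Mmrn2, a vessel matrix protein that binds both receptors, had 43.5 to 63.7 CPM in kidney disease (median 48.0) and 44.6 to 54.0 CPM in wild type (median 49.6). Its log2 change was 0.02 (95% interval -0.13 to 0.18). The kidney disease range of Cd93 lay inside the wild-type range, and the wild-type range of Mmrn2 lay inside the kidney disease range. The difference between Clec14a and these genes was not tested.

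Receptor tyrosine kinases and their partners, which carry VEGF and angiopoietin signals, showed values near 0: 6 of 6 lay above 0, none passed the test, and their median log2 change was 0.06. Kdr, the main signalling receptor for VEGF-A, had 227 to 309 CPM in kidney disease (median 294) and 194.2 to 316 CPM in wild type (median 267). Its log2 change of 0.13 (SE 0.09) had an adjusted p of 0.620. The kidney disease range lay inside the wild-type range. Flt1, a VEGF receptor that acts largely as a decoy, had 153 to 192.8 CPM in kidney disease (median 169) and 144 to 189.5 CPM in wild type (median 168). Nrp1, a co-receptor for VEGF and class 3 semaphorins, had a median of 177 CPM in both groups and a log2 change of 0.01 (95% interval -0.13 to 0.14). The interval of Flt1 was -0.11 to 0.18.

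Tek, the angiopoietin receptor Tie2, had the largest log2 change of this group. It had 61.6 to 71.9 CPM in kidney disease (median 69.3) and 53.5 to 69.0 CPM in wild type (median 62.4). Of the kidney disease animals, 4 of 7 lay above every wild-type animal, and the log2 change was 0.15 (SE 0.06, adjusted p = 0.340). Tie1, its partner receptor, differed by 0.09 (SE 0.07, adjusted p = 0.652) on the log2 scale. For Ptprb, the phosphatase VE-PTP that dampens Tie2, the log2 change was 0.02 (SE 0.07, adjusted p = 0.968). Values of Ptprb and Tie1 moved below 0 among the libraries led by Ttn (-0.09 and -0.10), and Tek did not (0.20).

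The other receptors held the one called gene and all 3 genes with a value below 0. Eng, endoglin, a co-receptor for BMP9 and BMP10, had 244 to 308 CPM in kidney disease (median 277) and 205 to 295 CPM in wild type (median 241). All 7 kidney disease animals lay above the wild-type mean, 1 lay above every wild-type animal, and the log2 change of 0.21 (SE 0.08) missed the threshold (adjusted p = 0.237). Robo4, a roundabout receptor that stabilises vessels, had 35.1 to 45.8 CPM in kidney disease (median 41.9) and 37.1 to 54.9 CPM in wild type (median 42.6). Its log2 change was -0.08 (SE 0.08, adjusted p = 0.778), and 2 of 7 kidney disease animals lay above the wild-type mean. Within the libraries led by Ttn the change of Robo4 was -0.31, and within those led by mt-Co1 it was -0.02. Aplnr, the apelin receptor, had 26.0 to 41.9 CPM in kidney disease (median 35.5) and 16.2 to 45.9 CPM in wild type (median 38.2). Its log2 change of -0.06 had a wide interval (-0.42 to 0.29), and the coefficient of variation (CV, SD over mean) among wild-type animals was 29.0%. S1pr1, the receptor through which sphingosine 1-phosphate tightens the barrier, had a log2 change of 0.07 (SE 0.14), and of -0.06 without kidney disease animal 6.

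Adhesion and junction genes split into level and variable members. Cdh5, which encodes VE-cadherin of the adherens junction, had 222 to 262 CPM in kidney disease (median 247) and 213 to 279 CPM in wild type (median 244). Its log2 change was 0.00 with a 95% interval of -0.12 to 0.13. Kidney disease values lay wholly within the wild-type range. Pecam1, the adhesion molecule CD31, had 141 to 166 CPM in kidney disease (median 151) and 130 to 157 CPM in wild type (median 142). Its log2 change of 0.10 (SE 0.05) had the smallest error of the 34 genes and an adjusted p of 0.438. In all, 6 of 7 kidney disease animals lay above the wild-type mean of Pecam1.

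Cldn5, the main claudin of endothelial tight junctions, had 14.3 to 42.5 CPM in kidney disease (median 24.8) and 10.4 to 28.7 CPM in wild type (median 19.1). Its log2 change of 0.39 had the largest error of the set (SE 0.23, adjusted p = 0.548), and it was 0.20 without kidney disease animal 6. The ranges overlapped. Ecscr, a surface regulator of endothelial chemotaxis, had 8.25 to 14.8 CPM in kidney disease (median 9.37) and 6.802 to 8.94 CPM in wild type (median 7.44). All 7 kidney disease animals lay above the wild-type mean and 5 above every wild-type animal. The log2 change was 0.37 (SE 0.11, adjusted p = 0.119), and 0.24 (adjusted p = 0.168) without kidney disease animal 6. Esam, an adhesion molecule of tight junctions, had a log2 change of 0.12 (SE 0.10), and Emcn, a sialomucin that limits leukocyte adhesion, of 0.07 (SE 0.08). Without kidney disease animal 6 they were 0.05 for Esam and 0.01 for Emcn.

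Caveola, diaphragm, matrix and intracellular genes showed values above 0 and none past the test. Cav1, the coat protein of caveolae, had 149 to 202 CPM in kidney disease (median 166) and 135 to 174 CPM in wild type (median 162), a log2 change of 0.09 (SE 0.07) that was 0.04 without kidney disease animal 6. Plvap, which forms the diaphragms of fenestrae and caveolae, had 6.89 to 32.8 CPM in kidney disease (median 21.3) and 11.7 to 25.5 CPM in wild type (median 18.1). Kidney disease animals thus held both the highest and the lowest Plvap value, and the log2 change was 0.20 (SE 0.22, adjusted p = 0.805), or 0.35 (SE 0.16) without kidney disease animal 6, which held the lowest value. For Egfl7, a secreted protein of the vessel wall, the log2 change was 0.21 (SE 0.09, adjusted p = 0.368), and 0.15 without kidney disease animal 6. Counts of Egfl7 are uncertain, since its exons overlap Gm20532 (same strand, 7.37% of bases) and Agpat2 (opposite strand, 1.79%). Agpat2 had 2102 to 2829 counts per library. Rasip1, which guides vessel tube formation, had 0.07 (SE 0.07), and its counts are uncertain because 20.4% of its exon bases overlap Izumo1 on the same strand. Ushbp1 had 0.07 (SE 0.11). Without kidney disease animal 6 the value was 0.04 for Rasip1 and -0.01 for Ushbp1. Rgcc, a cell cycle regulator prominent in heart capillaries, had 0.06 (SE 0.17), and without kidney disease animal 6 it had -0.11.

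The Ly6 surface antigens had the highest median log2 change of the roles (0.41), though neither passed the test, and their values rested in part on 1 animal. Ly6a, which encodes the antigen Sca-1, had 39.8 to 84.0 CPM in kidney disease (median 44.5) and 33.0 to 41.6 CPM in wild type (median 36.5). In all, 6 of 7 kidney disease animals lay above every wild-type animal. The log2 change was 0.45 (SE 0.12, adjusted p = 0.0793). Without kidney disease animal 6, the one at 84.0 CPM, the change was smaller at 0.28, but its error also fell (SE 0.06) and the test was passed (adjusted p = 0.0364). Ly6c1, the antigen Ly-6C, had 52.4 to 113 CPM in kidney disease (median 60.6) and 42.4 to 59.0 CPM in wild type (median 54.0). Of the kidney disease animals, 5 of 7 lay above every wild-type animal, with a log2 change of 0.37 (SE 0.13, adjusted p = 0.204) that was 0.20 without animal 6. Within the libraries led by Ttn the change was 0.08 for Ly6c1 and 0.28 for Ly6a, and within those led by mt-Co1 it was 0.54 for Ly6c1 and 0.58 for Ly6a. Both lie on chromosome 15, 45986 bases apart, and share sequence with near copies. Of the 50-base stretches of Ly6c1 transcripts 32.8% occur in other genes (Ly6c2, Ly6a), and of those of Ly6a 19.0% do (Ly6c1, Ly6i), so counts of both are uncertain.

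Transcription factors of the endothelial programme all had values above 0, 7 of 7 with a median log2 change of 0.18, and none passed the test. The SoxF factors Sox17 and Sox18 had the largest log2 changes among them, and both are known regulators of arterial and vascular development. Sox18 had 54.1 to 74.98 CPM in kidney disease (median 65.0) and 44.8 to 61.3 CPM in wild type (median 54.1). In all, 6 of 7 kidney disease animals lay above every wild-type animal, with a log2 change of 0.28 (SE 0.08, adjusted p = 0.0859), which was 0.15 within the libraries led by Ttn and 0.31 within those led by mt-Co1. Sox17 had 12.5 to 21.3 CPM in kidney disease (median 15.8) and 8.99 to 15.2 CPM in wild type (median 12.6). All 7 kidney disease animals lay above the wild-type mean and 4 above every wild-type animal. The log2 change of Sox17 was 0.36 (SE 0.12, edgeR adjusted p = 0.172). Without kidney disease animal 6 it was 0.28 for Sox17 (adjusted p = 0.337) and 0.29 for Sox18 (adjusted p = 0.0995). Sox7, the third SoxF factor, had 18.8 to 36.4 CPM in kidney disease (median 26.0) and 19.8 to 27.8 CPM in wild type (median 25.7), a log2 change of 0.06 (SE 0.11), and 0.13 without animal 6. The wild-type range lay inside the kidney disease range. Exons of Sox17 share 16.9% of their bases with the opposite-strand gene Gm37587, which had 7 to 25 counts per library.

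Of the ETS factors, Fli1 had 35.3 to 47.4 CPM in kidney disease (median 40.8) and 31.7 to 40.4 CPM in wild type (median 36.0), with a log2 change of 0.18 (SE 0.07, adjusted p = 0.229), which was 0.07 within the libraries led by Ttn and 0.25 within those led by mt-Co1. Of the kidney disease animals, 4 of 7 lay above every wild-type animal. Without kidney disease animal 6 the change was 0.15 for Fli1 (edgeR adjusted p = 0.405) and 0.08 for Erg. Erg had 22.9 to 30.0 CPM in kidney disease (median 23.8) and 21.3 to 27.0 CPM in wild type (median 24.2), with a log2 change of 0.07 (95% interval -0.08 to 0.21). Meox2 and Tcf15 pair up to drive fatty acid transport genes in heart capillaries. Meox2 had 14.7 to 23.9 CPM in kidney disease (median 19.1) and 11.3 to 19.0 CPM in wild type (median 16.7). Of the kidney disease animals, 5 of 7 lay above every wild-type animal, with a log2 change of 0.27 (SE 0.12, adjusted p = 0.324). Without animal 6 the change of Meox2 was 0.21 (edgeR adjusted p = 0.537). Tcf15 had 11.9 to 34.6 CPM in kidney disease (median 22.8) and 15.2 to 26.7 CPM in wild type (median 22.9), a log2 change of 0.10 (SE 0.17) that was -0.03 without animal 6.

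Levels per kilobase of exon placed the set among the better expressed genes of the ventricle. The genes ranked between percentiles 58.0 and 97.2 of all genes tested (median 88.6), and 30 of 34 lay above the upper quartile. Eng was the highest, at 67.9 ± 5.99 CPM per kilobase in kidney disease hearts and 58.9 ± 7.09 in wild-type hearts (SD, n = 7 and 8). Cdh5 followed with 58.1 ± 3.44 in kidney disease hearts and 58.0 ± 4.82 in wild-type hearts. In wild type these neighbours in the order differed by less than their SD. Sox17 was the lowest, at 3.36 ± 0.66 in kidney disease hearts and 2.62 ± 0.43 in wild-type hearts. Below the upper quartile it was joined by Ecscr, Clec14a and Emcn, so the called gene was one of the less abundant of the set.

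**Figure D3:**
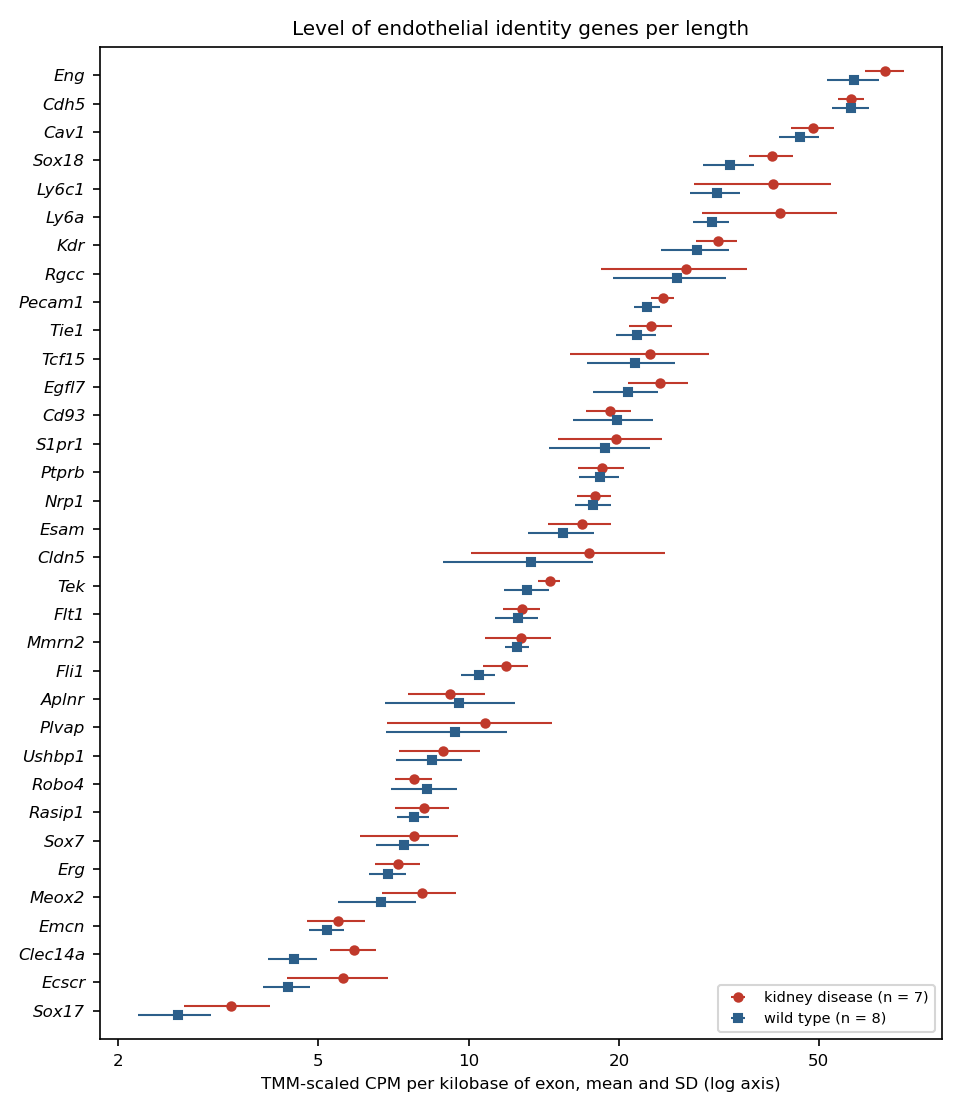
Level per kilobase of exon of each of the 34 genes (x axis, log scale, TMM-scaled CPM per kilobase), as group means with SD, kidney disease above wild type within each gene. Eng and Cdh5 stand at the high end and Sox17 at the low end, and the order is much the same in both groups.

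Animals of one group differed from each other less in these genes than in the typical gene tested, but the comparison was not matched for level. The set ranked high in level, and the part of level in its smaller spread was not tested. The median CV of the 34 genes was 12.8% among kidney disease animals and 11.5% among wild-type animals. Over all genes tested it was 16.6% among kidney disease animals and 16.03% among wild-type animals. Mmrn2 (5.55%) and Pecam1 (6.04%) varied least among wild-type hearts. Cldn5 varied most, by 41.8% among kidney disease animals, against 33.3% among wild-type animals.

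Kidney disease animal 6 stood apart from its group. It held the highest value of all 15 libraries for 15 of the 34 genes, and the lowest for 3 (Plvap, Ptprb and Sox7). Its summed level of the 34 genes was 3113 CPM, the highest of the kidney disease range of 2542 to 3113 CPM, and wild-type animals had 2450 to 3016 CPM. Endothelial lists outside the 34 genes went both ways in this animal. Its sum of further pan-endothelial genes was the lowest of all 15 libraries (1241 CPM). So were its sums of venous (216 CPM), lymphatic (173 CPM) and endocardial markers (140 CPM). Its capillary marker sum was the highest (2267 CPM), and its arterial sum (222 CPM) was neither. The same animal had the lowest summed level of cardiomyocyte markers of all libraries (112331 CPM) and, within its group, the highest of macrophage markers (609 CPM) and the lowest of fibroblast markers (2348 CPM), and the part of these in its endothelial values was not tested. Without animal 6 the set had 27 genes above 0 and 7 below and a median log2 change of 0.08. The lowest kidney disease animal was number 1, with 12 of the 34 genes above the wild-type mean, against 24 to 30 in the other 6. Wild-type animals spread as widely, from 9 genes above the wild-type mean in animal 3 to 28 in animal 8.

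**Figure D4:**
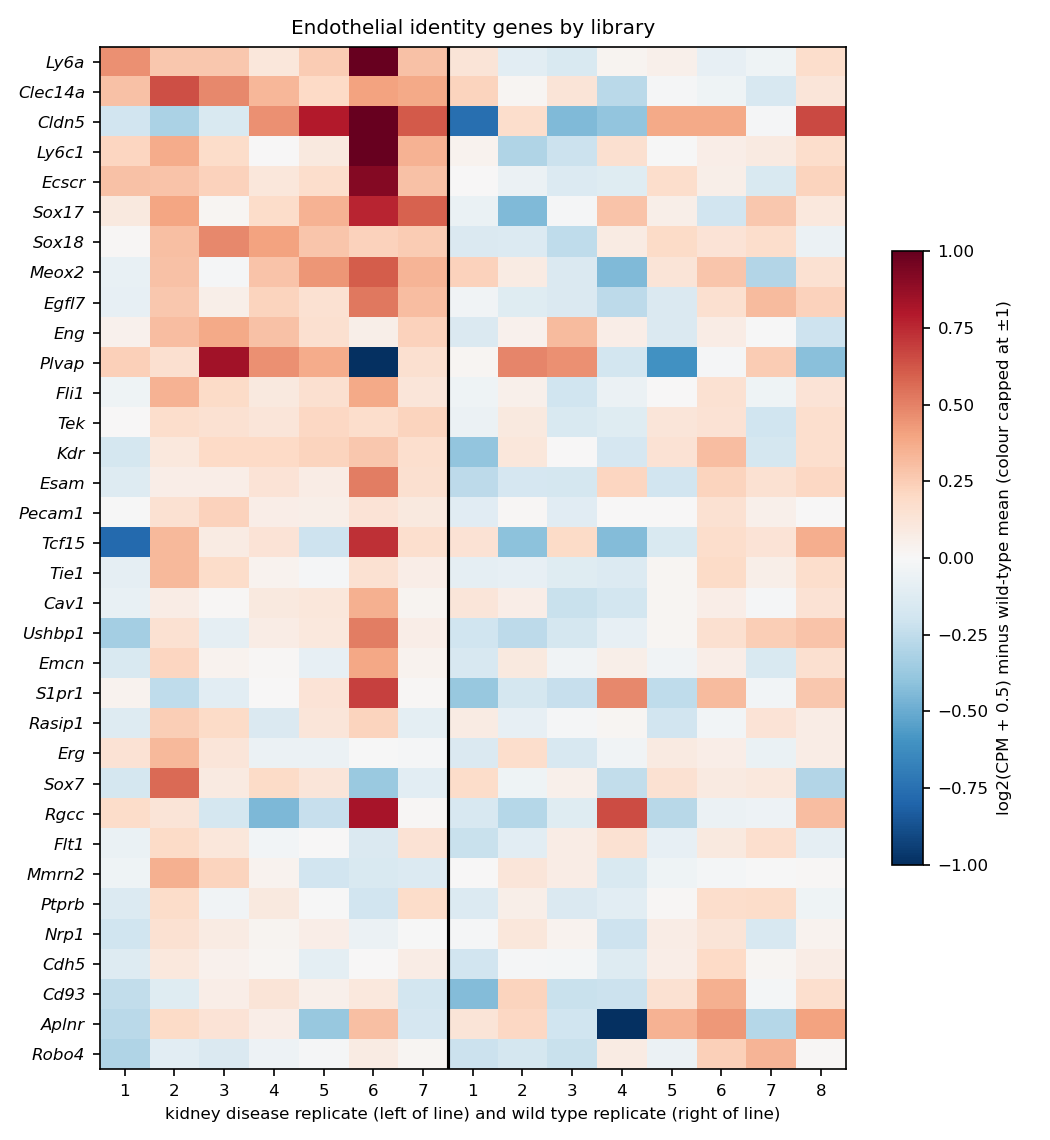
Deviation of each of the 34 genes (rows, ordered by log2 change) in each animal (columns, kidney disease left of wild type) from the wild-type mean, on a log2 scale capped at 1 in either direction. Kidney disease animal 6 holds the strongest positive deviations, in Ly6a, Ly6c1, Cldn5 and Ecscr, beside a strong negative one in Plvap.

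Other genes of the pathways these members belong to were counted without the members. In the VEGF pathway 0 of 7 other genes passed the test, 3 lay above 0 and 4 below; Flt4, the lymphatic VEGF receptor, had a log2 change of -0.23 (adjusted p = 0.266), and the ligand Vegfb -0.14 (adjusted p = 0.402). In the angiopoietin and Tie pathway 0 of 5 passed, 4 above 0. The Tie1 ligand Svep1 had 0.29 (adjusted p = 0.167) and the adaptor Dok2 0.40 (adjusted p = 0.282). Without kidney disease animal 6 Svep1 had 0.34 (edgeR adjusted p = 0.095) and Dok2 0.28 (adjusted p = 0.523). Of the apelin and sphingosine 1-phosphate pathway 0 of 7 passed, 6 above 0, led by the receptor S1pr2 (0.30, adjusted p = 0.0912) and the transporter Spns2 (0.21, adjusted p = 0.312). Of the BMP9 and endoglin pathway 0 of 11 passed, 10 above 0. There Smad6, an inhibitory Smad, had 27.2 to 39.5 CPM in kidney disease (median 35.1) and 21.3 to 31.5 CPM in wild type (median 26.5), a log2 change of 0.35 (adjusted p = 0.0564). Tmem100, which acts downstream of BMP9, had 0.46 (adjusted p = 0.130). Without kidney disease animal 6 the count of this pathway was 2 higher, and without animal 1 or 7 it was 1. Without animal 6 the called genes included Smad6 (edgeR adjusted p = 0.0295) but not Tmem100 (adjusted p = 0.191).

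The guidance genes, endothelial transcription factors outside the set, junction and caveola genes and further pan-endothelial genes held no gene past the edgeR test. Of 8 guidance genes 4 lay above 0, with Sema6a at -0.23 (adjusted p = 0.326) and Sema3f at 0.17 (adjusted p = 0.360). Of 17 transcription factors 14 lay above 0, with Meox1, a relative of Meox2, at 0.51 (adjusted p = 0.113) and Lyl1 at 0.23 (adjusted p = 0.202). Without kidney disease animal 6 Meox1 had 0.34 (edgeR adjusted p = 0.199) and Lyl1 0.24 (adjusted p = 0.241). Of 12 junction and caveola genes 7 lay above 0, with Cavin3 at 0.30 (adjusted p = 0.142), or 0.19 without kidney disease animal 6, and F11r at 0.15 (adjusted p = 0.163). Of 22 further pan-endothelial genes 16 lay above 0 with a median of 0.07, and Calcrl (0.21, adjusted p = 0.164) and Adgrl4 (0.18, adjusted p = 0.171) had the smallest p. By unadjusted p below 0.05 the counts were 2 in each of the VEGF, angiopoietin, guidance and junction lists, and 3 in each of the apelin, BMP9, transcription factor and pan-endothelial lists. DESeq2 called Smad6, Tmem100, S1pr2 and Meox1 higher in these 8 lists, and limma-voom called 0.

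Markers of endothelial subtypes, again without the 34 genes, gave 1 call by edgeR. Hey1, a Notch target and arterial transcription factor, had 13.8 to 19.4 CPM in kidney disease (median 17.4) and 8.47 to 13.4 CPM in wild type (median 10.7). No kidney disease animal overlapped with wild type. Its log2 change was 0.69 (SE 0.09, adjusted p = 0.00132), and it was the only one of 12 arterial markers past the edgeR test, here and with any 1 library left out. Among the rest of that list 9 lay above 0 and 2 below. Stmn2 had a log2 change of 0.53 (adjusted p = 0.059), and 0.37 (adjusted p = 0.0766) without kidney disease animal 6. DESeq2 called it as well (adjusted p = 0.01), as did edgeR with no filter, with the filter of 1 CPM or with the leading transcript as a covariate, so that 2 arterial markers passed there, and limma-voom called Hey1 alone. None of 8 capillary markers passed, 4 on each side of 0 and 4 with an unadjusted p below 0.05. Aqp1, a water channel, had 138 to 172 CPM in kidney disease (median 159) and 126 to 242 CPM in wild type (median 202), a log2 change of -0.35 (adjusted p = 0.108). Car4, a membrane carbonic anhydrase, had a log2 change of -0.35 (adjusted p = 0.157). DESeq2 called Aqp1 lower and limma-voom called none, and 1 capillary marker was lower after leaving out wild-type animal 2 or 3.

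Of 8 venous markers 0 passed and 6 lay above 0, with Ephb4 at 0.14 (adjusted p = 0.291) and Vcam1 at 0.22 (adjusted p = 0.321). Of 6 lymphatic markers 0 passed and 4 lay below 0. Lyve1, a hyaluronan receptor also found on macrophages, lay above 0 at 0.39 (adjusted p = 0.0686), and was past the test without kidney disease animal 7 or wild-type animal 4 and by DESeq2. Of 7 endocardial markers 0 passed and 0 had an unadjusted p below 0.05, with Npr3 at 0.22 (adjusted p = 0.780) and Bmp6 at 0.06 (adjusted p = 0.809), or 0.37 for Npr3 and 0.11 for Bmp6 without kidney disease animal 6. By unadjusted p below 0.05 the venous list had 2 and the lymphatic list 4.

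Markers of other cells of the ventricle moved between the same groups. Of 12 macrophage markers 8 were higher in kidney disease, among them C1qa, C1qb and Csf1r, and their summed level was 432 to 609 CPM in kidney disease hearts, against 315 to 378 CPM in wild-type hearts, with no overlap. B cell markers were higher for 5 of 6, with sums of 16.9 to 27.4 CPM in kidney disease hearts, against 7.10 to 15.001 CPM in wild-type hearts. The count was 3 with the filter of 1 CPM, and 3 after leaving out any one of kidney disease animals 2 to 6 or of wild-type animals 1, 3, 4 and 6. Fibroblast markers were higher for 6 of 12 (Dpt, Mfap5, Pi16, Col3a1, Lum and Dcn), with overlapping sums of 2348 to 2948 CPM in kidney disease hearts, against 2257 to 2629 CPM in wild-type hearts, and 0 were after leaving out kidney disease animal 3 or 5 or wild-type animal 5. Leaving out any one of kidney disease animals 1, 4, 6 and 7 or of wild-type animals 1, 3, 4 and 6 left 1 to 3 of them. No cardiomyocyte marker of 13 passed (0 by DESeq2 and by limma-voom, 3 at an unadjusted p below 0.05). Their sum was 112331 to 129246 CPM in kidney disease (median 120636) and 127954 to 136324 CPM in wild type (median 131887). Of 12 smooth muscle and pericyte markers 0 passed by any of the 3 tools (2 at an unadjusted p below 0.05), and sums overlapped, 3480 to 3910 CPM in kidney disease hearts, against 3392 to 4156 CPM in wild-type hearts. No marker in any of the lists was at 0 in all libraries. The lower median of the cardiomyocyte sums in kidney disease moves with the lean of the endothelial set, and its part in that lean was not tested. Ly6a and Ly6c1 are also expressed by some leukocytes and Ly6a by stromal cells. The part of macrophages, B cells and fibroblasts in their values, or in those of any other endothelial gene named here, was not tested. None of 6 T cell markers passed (0 by any tool, 0 at an unadjusted p below 0.05), and 6 of 6 erythroid markers lay below 0 without passing (6 at an unadjusted p below 0.05, 0 by any tool).

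**Figure D5:**
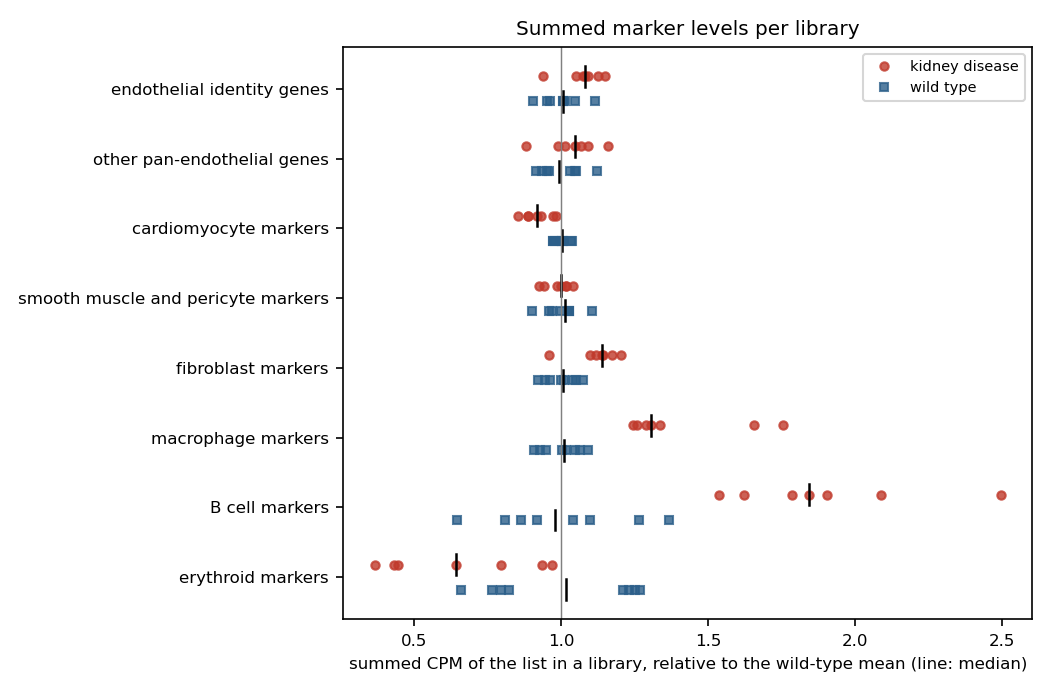
Summed level of each marker list in each animal relative to the wild-type mean (x axis), for the endothelial genes and for markers of other cells (y axis), kidney disease above wild type. The sums of the 34 endothelial genes overlap between groups, while those of macrophage and B cell markers lie higher in every kidney disease animal than in any wild-type animal.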

How the data were processed

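Per the labels' protocols, total RNA from left ventricle was extracted with TRIzol, cleaned on columns and treated with DNase, and ribosomal RNA was removed (KAPA RiboErase). The submitters' processing notes name bcl2fastq, STAR 2.7.9a, Subread, featureCounts 2.0.3 and the build GRCm38. Strand and other counting options: not given in the sources used here. Genes with overlapping exons are therefore uncertain. The authors deposited raw counts, CPM and FPKM per gene; the deposited CPM and FPKM values were recomputed from the counts and not used further. Symbols came from GENCODE M21, in which 55227 of 55487 identifiers were found.

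Counts were filtered with filterByExpr (minimum count 10), scaled by TMM and fitted in edgeR 4.0.16 under R 4.3.3 (quasi-likelihood F test), with Benjamini-Hochberg adjustment over 20718 genes and a threshold of 0.05. Fold changes are kidney disease over wild type. All CPM values printed are TMM-scaled, and levels per kilobase divide them by the exon length in the files. Spread between animals, more than counting error, limits the precision at 48748379 to 65519279 counts per library. The fit was tested on simulated data. No libraries were identical, and within groups chi-square per degree of freedom was at least 9.16.

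The 34 genes and all lists were chosen with earlier results of these data known. Named genes are the 34, Col4a5 and Col4a6, and in each other list the called genes and up to 2 with the smallest p; macrophage and fibroblast markers are named without values and B cell markers are not named. Alternatives were RLE and upper-quartile scaling, no filter, a filter of 1 CPM in 7 libraries, DESeq2 1.42.0, limma-voom (limma 3.58.1), removal of mitochondrial genes, a replicate block, the leading transcript as a covariate or as subsets, and leaving out each library.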

Additional observations from a re-analysis of the deposited data

Results flagged for a closer look

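The 34 genes and the named genes of the pathway, endothelial and cardiomyocyte lists were searched in each animal group, as 122 groups of values. Chance at 1 in 20 would pick out 6.1 if genes of the same animals were independent, which they need not be. In 13 groups of values the highest or lowest animal stood far from the others. Kidney disease animal 6 accounted for 11 of them. It had the highest kidney disease value of Esam (62.6 CPM), Cav1 (202 CPM), Ly6c1 (113 CPM), Ly6a (84.0 CPM), S1pr1 (90.0 CPM), Rgcc (41.6 CPM) and Ecscr (14.8 CPM). Outside the 34 genes it was also highest for Meox1 (27.2 CPM), Cavin3 (20.97 CPM) and Stmn2 (11.3 CPM), and it was lowest for the cardiomyocyte gene Myh6 (27758 CPM, against 37136 CPM in the next animal). Kidney disease animal 1 had the lowest Kdr (227 CPM, next 276 CPM), and wild-type animal 4 the lowest Sema6a of its group (24.0 CPM, next 31.8 CPM). The part of its low cardiomyocyte transcripts in the values of kidney disease animal 6 was not tested.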

How the results depend on the processing

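The share of all genes tested that passed moved with the setting. DESeq2 called 2.21% higher and 1.53% lower, the leading transcript as a covariate 1.62% and 0.907%, the replicate block 0.321% and 0.243%, libraries led by mt-Co1 0.242% and 0.174%, and those led by Ttn 0.0045% and 0.0089%. No filter gave 0.164% lower, and the filter of 1 CPM in 7 libraries 1.05% lower. Leaving out a library gave 0.325% to 0.959% higher and 0.146% to 0.939% lower. Among the 34, DESeq2 called 4 higher, the covariate and no filter 2 each (Clec14a and Ly6a), and either subset of libraries 0. Leaving out a library gave 1 to 2 higher and 0 lower, with a median log2 change of 0.082 to 0.130; within the libraries led by Ttn the median was -0.023.

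Of the 34 genes, 16 kept their sign in all 26 alternatives and 18 did not. The log2 change of Cdh5 was -0.0016 with DESeq2, -0.003 with RLE, -0.0065 with upper-quartile scaling, -0.0032 with the filter of 1 CPM and -0.0083 with the covariate. That of Ptprb was -0.015 with the covariate. Aplnr had 0.039 with the block and 0.062 in libraries led by mt-Co1, where Nrp1 had -0.0079 and Bmp6 -0.0041. In libraries led by Ttn, Cdh5 had -0.114, Pecam1 -0.034, Flt1 -0.097, Tie1 -0.10, Egfl7 -0.0125, Esam -0.070, Erg -0.053, Sox7 -0.033, Mmrn2 -0.0904, Ptprb -0.0901, S1pr1 -0.11, Rasip1 -0.10, Ushbp1 -0.13, Rgcc -0.16, Tcf15 -0.12 and Sema3f -0.047. Leaving out a library gave Cdh5 -0.024 to 0.031, Sox7 -0.039 to 0.13, Mmrn2 -0.039 to 0.058, Ptprb -0.014 to 0.0475, Nrp1 -0.020 to 0.040, S1pr1 -0.056 to 0.15, Ushbp1 -0.0096 to 0.14, Rgcc -0.11 to 0.18, Tcf15 -0.031 to 0.21 and Cd93 -0.098 to 0.011. The cause was not tested.

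Whether the replicate numbers 1 to 7 in the labels pair the animals is not known. Correlations of same-numbered animals, in deviations from the group means, ran from -0.20 to 0.42, which cannot decide it. For numbers 1 and 7 the same-numbered animal had the highest correlation of the wild-type animals, and for numbers 2 to 6 it did not. With the replicate block, which leaves out wild-type animal 8, Clec14a had a log2 change of 0.42 (adjusted p = 0.0367) and 32 of the 34 genes lay above 0. Depth limits none of the 34, whose smallest count in any library was 319.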
